A study of Mus musculus with 6 samples.

Results

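Adam8, Adam9, Adam10, Adam12, Adam15, Adam17, Adam19 and Adam23 are 8 genes of the ADAM family, membrane proteins with a metalloprotease and a disintegrin domain. They were taken by symbol from the 22027 genes of the deposited table, where each had 1 row. The table held 26 other ADAM genes. The 8 were chosen by family and by their normalised counts in injured and sham livers, with Adam8 and Adam15 at the head for their higher values after injury, so their differences between these groups are given as a description. Fits over all genes include them, and how many they called is stated with nothing read from it.

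The libraries came from cells labelled as liver lymphatic endothelial cells, sorted from mice with a green fluorescent reporter of Il7, the interleukin 7 gene. All 6 libraries carry that reporter, and the column names add the words GFP and plus. Of these, 3 were labelled sham and 3 were taken 3 days after liver injury by ischemia and reperfusion (I/R), in which the blood supply is stopped and then let back in. The sources used here do not give strain, age, sex, the sham time point, gating markers or the animals behind each library, so the spread between libraries may be partly technical.

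ADAM proteases cut other membrane proteins close to the cell surface and release their outer part, a step called shedding. Released products include tumour necrosis factor, ligands of the epidermal growth factor receptor, cytokine receptors and adhesion molecules, and cleavage of Notch receptors starts their signalling. The disintegrin domain can bind integrins. In the liver, ADAM10 and ADAM17 are known from hepatocytes, macrophages and endothelium, and ADAM8 from leukocytes.

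Library depth ranged from 6297308 to 17086746 counts recovered from the deposited values. All 8 lymphatic marker genes looked at, among them Prox1 and Pdpn, had counts in every library. Their summed normalised count was 8605 to 30646 in sham and 27723 to 44734 in I/R libraries, lowest in sham library 3. These sums overlapped, with a ratio of means, I/R to sham, of 1.84. The 6 markers of Kupffer cells, the resident liver macrophages, were present throughout as well, with sums of 128333 to 147507 in sham and 86002 to 146833 in I/R libraries. Macrophage transcripts were thus measured beside those of lymphatic endothelium, with the Kupffer sum above the lymphatic sum in every library. Hepatocyte markers were measured as well, and the table does not assign an ADAM transcript to any cell type. In such bulk samples more cells of a type and more RNA per cell cannot be told apart.

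Adam8 encodes a sheddase of leukocytes. Its normalised count was 53.8, 49.2 and 40.6 in sham libraries 1, 2 and 3, and 345, 799.99 and 416 in I/R libraries 1, 2 and 3. Every I/R library lay far above every sham library, and I/R library 2 was the highest. The group values were 47.9 ± 6.68 and 520.4 ± 245 (SD, n = 3 each), a ratio of 10.9. The log2 fold change, here always the difference between the group means of log2(normalised count + 1), was 3.33 (SE 0.35). Behind these values stood 33, 74 and 34 sham counts and 227, 1314 and 534 I/R counts. Leaving out 1 library at a time gave log2 fold changes of 2.97 to 3.57, the lowest without I/R library 2.

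Adam15 encodes a protease found on endothelial and other cells, where it has been linked to cell junctions. Sham libraries 1, 2 and 3 had normalised counts of 303, 245 and 251, and I/R libraries 1, 2 and 3 had 568, 601 and 755. The groups did not overlap, and I/R library 3 was the highest, unlike for Adam8. The means were 266 ± 31.8 and 641 ± 100.1 (SD, n = 3 each), a ratio of 2.41 and a log2 fold change of 1.26 (SE 0.21), with 1.14 to 1.35 when single libraries were left out. An antisense gene, 4731419I09Rik, shares 1263 of the 6145 exon bases of Adam15. No source used here says whether counting used the strand, so reads of the 2 genes may be mixed.

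Adam10 and Adam17 encode the main sheddases of most cells, ADAM10 for Notch receptors and many adhesion molecules and ADAM17 for tumour necrosis factor. Adam10 had normalised counts of 1903, 2281 and 1397 in sham libraries and of 2754, 2759 and 2798 in I/R libraries. The I/R libraries lay close together and all above the sham libraries, which were spread more widely. The log2 fold change was 0.60 (SE 0.20), and 0.41 without sham library 3, the lowest.

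Adam17 had 2320.5, 2839.6 and 2609.8 in sham and 2453, 2482 and 2673 in I/R libraries. The groups overlapped fully, with a log2 fold change of -0.03 (SE 0.16). Of the exon bases of Adam17, 311 of 7154 are shared with Iah1 on the opposite strand.

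**Figure D1:**
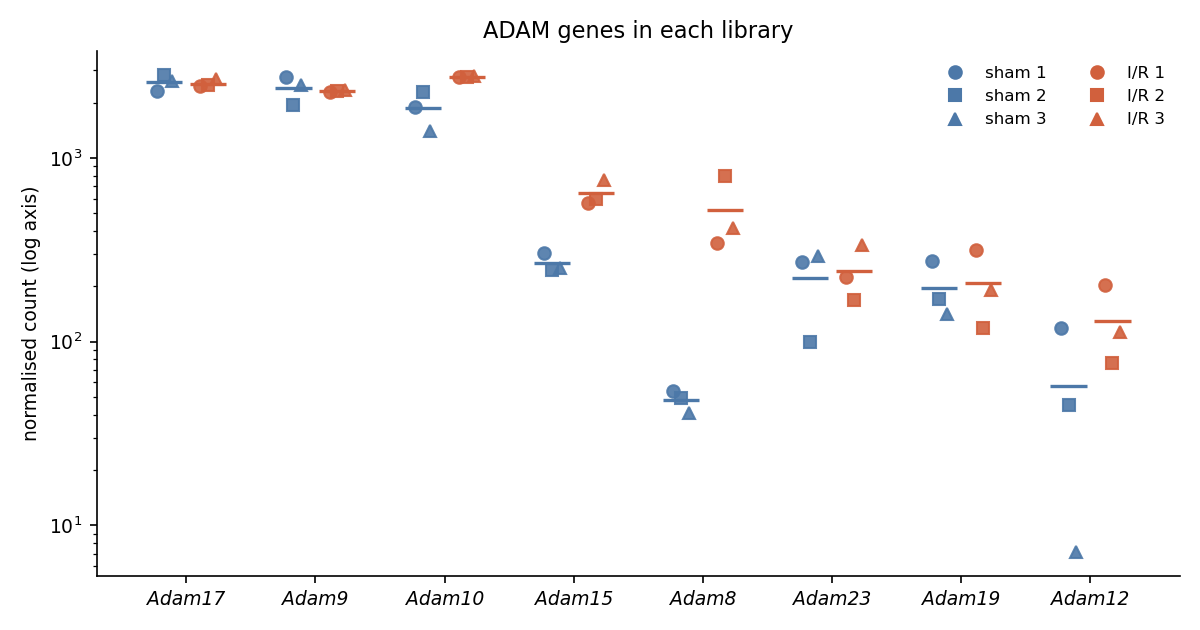
Normalised count (log axis) of the 8 ADAM genes in each library, sham in blue and I/R day 3 in orange, with a symbol shape for each replicate number and bars at the group means. Groups are apart for Adam8 (40.6 to 53.8 against 345 to 799.99), Adam15 (245 to 303 against 568 to 755) and Adam10 (1397 to 2281 against 2754 to 2798) and overlap for the other 5.

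Adam9, Adam12 and Adam19 encode active proteases that are known to shed growth factor ligands, among them heparin-binding EGF-like growth factor and neuregulins. Adam9 had 2764, 1946 and 2494 in sham and 2285, 2299 and 2348 in I/R libraries. The I/R values sat inside the sham range, and the log2 fold change was -0.04 (SE 0.18).

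Adam12 is known as a gene of activated fibroblasts and stellate cells. It had 119, 45.2 and 7.17 in sham libraries and 202, 76.1 and 112 in I/R libraries. The groups overlapped, library 1 was the highest in both, and sham library 3 rested on 6 counts. The log2 fold change was 1.76 (SE 0.83), and it was 0.70 without sham library 3 and 2.64 without sham library 1. Summed stellate cell and fibroblast markers, 7 genes all present, were 7853, 1344 and 1751 in sham and 2926, 3584 and 3794 in I/R libraries, and their part in the Adam12 values was not tested.

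Adam19 had 274, 170.3 and 141 in sham and 313, 118 and 191 in I/R libraries. These ranges overlapped almost wholly, with a log2 fold change of 0.03 (SE 0.39) that ran from -0.32 to 0.38 as single libraries were left out.

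Adam23 encodes a member without protease activity, known from the nervous system as an adhesion protein. It had 271, 99.8 and 294 in sham and 225, 167 and 334 in I/R libraries. Library 2 was the lowest in both groups, and the log2 fold change was 0.22 (SE 0.42), or -0.28 without sham library 2.

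**Figure D2:**
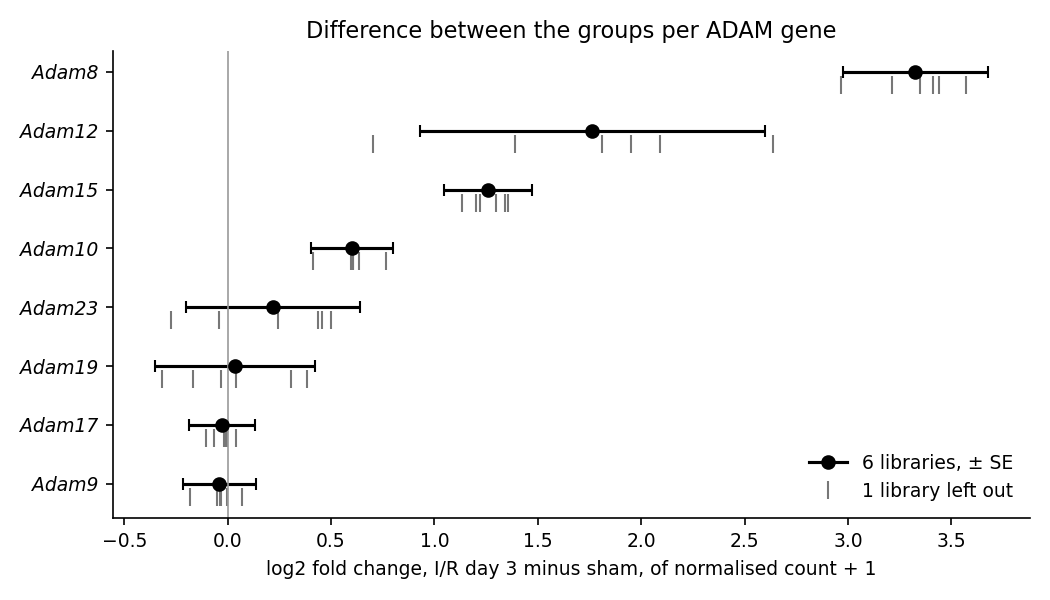
Log2 fold change of each ADAM gene, I/R day 3 minus sham, as a point with its SE over 6 libraries, and as ticks with 1 library left out at a time. Adam8 stays between 2.97 and 3.57 and Adam15 between 1.14 and 1.35, while the ticks of Adam9, Adam17, Adam19 and Adam23 lie on both sides of 0.

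All 8 genes passed the minimum mean of 10. The groups did not overlap, with I/R above sham, for 3 of the 8 (Adam8, Adam10 and Adam15), against 5.11% of the 13434 genes tested, and for 0 of the 8 with I/R below sham, against 4.48%. limma with Benjamini-Hochberg adjustment over all tested genes called 1 of the 8 higher at 0.05, Adam8, where it called 0.0298% of all genes higher and 0% lower. The median log2 fold change was 0.41 over the 8 and 0.02 over all genes tested. edgeR on the recovered counts also called Adam8 alone among the 8 (0.00744% of all genes higher). DESeq2 called Adam8 and Adam15 (0.236% of 14839 genes higher and 0.0472% lower). Since this contrast chose the genes, nothing is read from these counts. The limma call of Adam8 ended when the intensity trend was left out of the fit, with the same log2 fold change. It also depended on single libraries: it ended without sham library 2 or 3 or without I/R library 1, 2 or 3, and it held without sham library 1.

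To compare levels between the genes, normalised counts were divided by the length of all annotated exons of the gene. Per kilobase of exon, sham libraries had 583 ± 101 for Adam9, 379 ± 90.3 for Adam10 and 362 ± 36.4 for Adam17 (SD, n = 3 each). Adam15 followed at 43.4 ± 5.18 and Adam19 at 27.4 ± 9.80, and Adam23 at 12.4 ± 5.92, Adam8 at 10.3 ± 1.44 and Adam12 at 5.40 ± 5.38 closed the order. The library ranges of Adam10 and Adam17 overlapped, as did those of Adam23 and Adam8 and of Adam8 and Adam12, so the order within these pairs is not set. The other neighbours in the order did not overlap.

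In I/R libraries the order per kilobase began with Adam10 at 564 ± 4.93, Adam9 at 562 ± 8.02 and Adam17 at 354 ± 16.7 (SD, n = 3 each). The library ranges of Adam10 and Adam9 overlapped, so the order of this pair is not set. Adam8 came next at 112 ± 52.8, a level whose range overlapped that of Adam15 at 104 ± 16.3. Adam19 at 29.2 ± 13.9, Adam23 at 13.5 ± 4.72 and Adam12 at 12.3 ± 6.15 came last, each overlapping the next. From the highest level down, Adam8 had rank 7 in sham and rank 4 in I/R libraries. Summed over the 8 genes, the level per kilobase was 1342 to 1509 in sham and 1701 to 1782 in I/R libraries. Of the 328 by which the mean of that sum differed, Adam10 made up 185, Adam8 102 and Adam15 61.0, while Adam9 stood at -21.95.

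**Figure D3:**
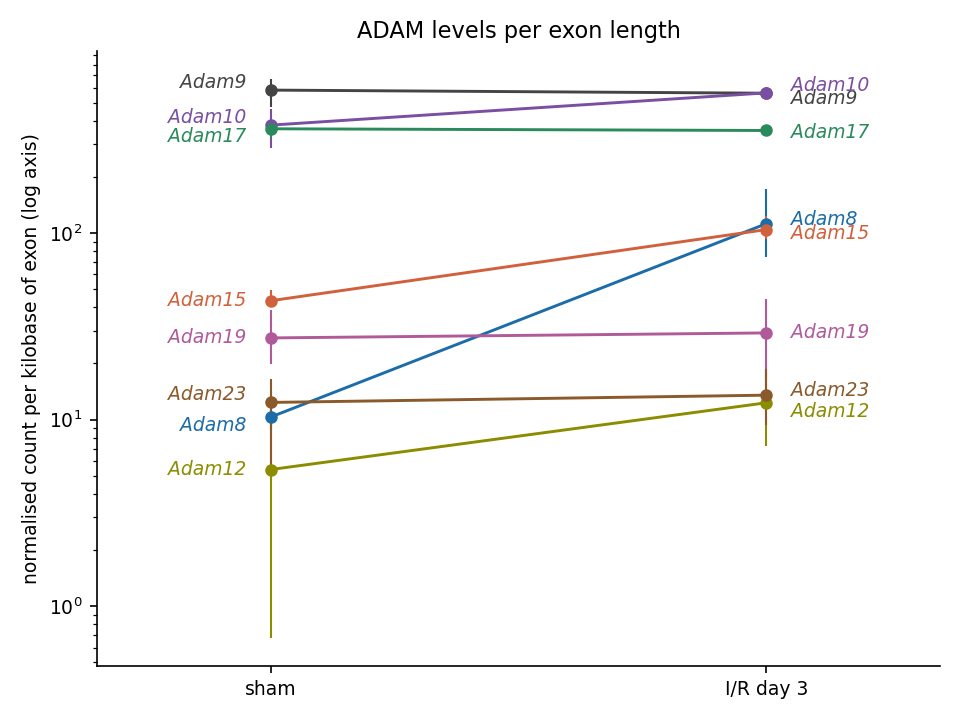
Normalised count per kilobase of exon (log axis) of each ADAM gene in sham and I/R day 3 libraries, with points at the group mean (n = 3) and vertical lines over the range of the libraries. Adam8 goes from 10.3 to 112 and meets Adam15 at 104, below Adam9, Adam10 and Adam17, which lie at 354 to 583 in both groups.

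The 8 genes lie on 7 chromosomes of GRCm38. Adam8 (ENSMUSG00000025473) and Adam12 (ENSMUSG00000054555) are both on the minus strand of chromosome 7, Adam8 from 139978932 to 139992562 and Adam12 from 133883199 to 134232146. On chromosome 3, Adam15 (ENSMUSG00000028041) covers 89338542 to 89349996 on the minus strand, and on chromosome 8 Adam9 (ENSMUSG00000031555) covers 24949611 to 25016927, also minus. Adam17 (ENSMUSG00000052593) lies on chromosome 12, 21323509 to 21373632, minus strand. Adam10 (ENSMUSG00000054693) spans 70678997 to 70780229 on the plus strand of chromosome 9, Adam19 (ENSMUSG00000011256) 46055992 to 46147343 on the plus strand of chromosome 11 and Adam23 (ENSMUSG00000025964) 63445891 to 63596276 on the plus strand of chromosome 1.

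Promoter windows of 300 bases, from 250 before to 50 after the RefSeq start, were found in RefSeq's GRCm38.p6 table for 6 of the 8 genes. Those of Adam8 (chr7:139992513-139992812, minus strand) and Adam15 (chr3:89349979-89350278, minus strand) are shown because these genes head the list, and that of Adam17 (chr12:21373583-21373882, minus strand) because its level was alike in both groups. Each runs 5′ to 3′ along the gene, and capitals mark the GC box, GGGCGG on either strand, which 35.7% of 32851 windows of this length contain.
Adam8: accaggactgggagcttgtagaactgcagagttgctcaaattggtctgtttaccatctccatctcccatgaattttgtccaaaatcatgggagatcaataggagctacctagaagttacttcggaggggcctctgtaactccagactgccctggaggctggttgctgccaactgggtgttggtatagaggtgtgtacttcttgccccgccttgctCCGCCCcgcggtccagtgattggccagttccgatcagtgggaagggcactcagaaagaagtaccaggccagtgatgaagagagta
Adam15: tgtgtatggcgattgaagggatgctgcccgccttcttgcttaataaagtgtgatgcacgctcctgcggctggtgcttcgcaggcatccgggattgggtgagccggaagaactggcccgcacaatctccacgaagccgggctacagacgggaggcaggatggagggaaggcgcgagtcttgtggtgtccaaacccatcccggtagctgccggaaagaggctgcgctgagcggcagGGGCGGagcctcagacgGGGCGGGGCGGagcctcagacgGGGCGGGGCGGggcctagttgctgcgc
Adam17: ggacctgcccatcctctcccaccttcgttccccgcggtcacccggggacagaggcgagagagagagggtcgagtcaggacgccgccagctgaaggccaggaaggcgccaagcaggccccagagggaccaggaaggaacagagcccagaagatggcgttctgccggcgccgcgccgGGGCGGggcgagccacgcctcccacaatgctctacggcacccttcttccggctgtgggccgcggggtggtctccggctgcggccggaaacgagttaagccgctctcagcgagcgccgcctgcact

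The Adam8 window had 1 GC box, on the reverse strand, and a GC content of 52.3% with 6 CpG pairs, close to the median of all windows at 52.7% and 7. The Adam15 window had 5 GC boxes, some of them overlapping, from just before to just after the start site, with a GC content of 65.3% and 25 CpG pairs. Adam17 had 1 GC box, 70.0% and 30 CpG pairs. The same search covered the AP-1 motif TGANTCA (7.81% of windows), the PU.1 motif GAGGAA (28.3%), the hypoxia motif ACGTG (19.6%) and the TATA box TATAAA (13.6%), on both strands. None of these 4 was found in the 3 windows shown. A match of letters is a description of the window and no more.

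Markers of recruited monocytes, summed, were higher in I/R libraries, as were Adam8 and Adam15. All 8 genes of that list were in the table. Their summed normalised count was 4734 to 5458 in sham libraries and 9681, 8741 and 11019 in I/R libraries 1, 2 and 3. These sums did not overlap, with a ratio of means of 1.92. The lowest I/R sum was in library 2, where Adam8 was highest. Within the list, Chil3 was at 0, 21.95 and 25.1 in sham libraries and at 116, 231 and 148 in I/R libraries. Chil3 was highest in I/R library 2 as Adam8 was, unlike the sum. Ly6c2 overlapped, at 0 to 31.1 in sham and 7.31 to 34.99 in I/R libraries. Of the 8 genes 7 had a positive log2 fold change and 1 a negative one, with a median of 1.39. The 8 lymphatic markers were all positive, with a median of 0.95 and overlapping sums at a ratio of means of 1.84. The part of recruited monocytes or of lymphatic endothelium in the Adam8 and Adam15 values was not tested.

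The 5 platelet markers summed to 132 to 461 in sham and 462 to 972 in I/R libraries, most of it Pf4, and Gp9 was listed at 0 in all 3 I/R libraries. Their part was not tested either. Of the 8 neutrophil markers, Ly6g, Retnlg and Elane were at 0 in all libraries and the sum overlapped between groups, at 1214 to 1273 in sham and 945 to 1311 in I/R libraries. Of 8 T and B cell markers 6 were in the table, with sums of 40.7 to 96.8 in sham and 66.2 to 96.2 in I/R libraries and Cd3e at 0 in all. Sums also overlapped for sinusoidal endothelium (6 genes, 6685 to 7526 and 5275 to 8827) and hepatocytes (6 genes, 38070.4 to 67067 and 41149 to 55397).

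The genes most like Adam8 across the 6 libraries were sought among 10836 others with a mean of at least 50. Likeness was the root mean square difference of log2(normalised count + 1) after each gene was centred on its own mean. Gpnmb, a macrophage glycoprotein gene, was nearest at 0.35, with 362, 181 and 127 in sham and 1226, 2978 and 1526 in I/R libraries. Like Adam8 it was highest in I/R library 2 and lowest in sham library 3.

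Next came Dpep2, a membrane dipeptidase gene (0.61), F13a1, encoding a coagulation factor XIII subunit (0.66), and the chemokine receptor genes Ccr2 (0.68) and Ccr1 (0.76). Dpep2 went from a mean of 26.4 ± 12.3 to 134 ± 40.1 (SD, n = 3 each). The log2 fold changes of these 4 were 2.09 to 2.37, and that of Gpnmb was 3.12. Since likeness was sought over these same libraries, a shared rise or peak follows from the search. Ccr2 and F13a1 are also in the recruited monocyte list, which was written with earlier results of these data known.

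For Adam15 the nearest gene was Nif3l1, at 0.11, with 44.0, 34.6 and 31.1 in sham and 70.0, 78.5 and 91.1 in I/R libraries, highest in I/R library 3 as Adam15 was. It was followed by the kinase gene Rps6ka2 (0.20), the membrane protein gene Ms4a4a (0.21), the kinase gene Lrrk2 (0.22) and the magnesium transporter gene Slc41a2 (0.24). The sets of 5 share no gene. Likeness counted the size of the difference between groups, and the log2 fold changes of Adam8 and Adam15 were 3.33 and 1.26. The lack of a shared gene thus follows from the search, and nothing is read from it.

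**Figure D4:**
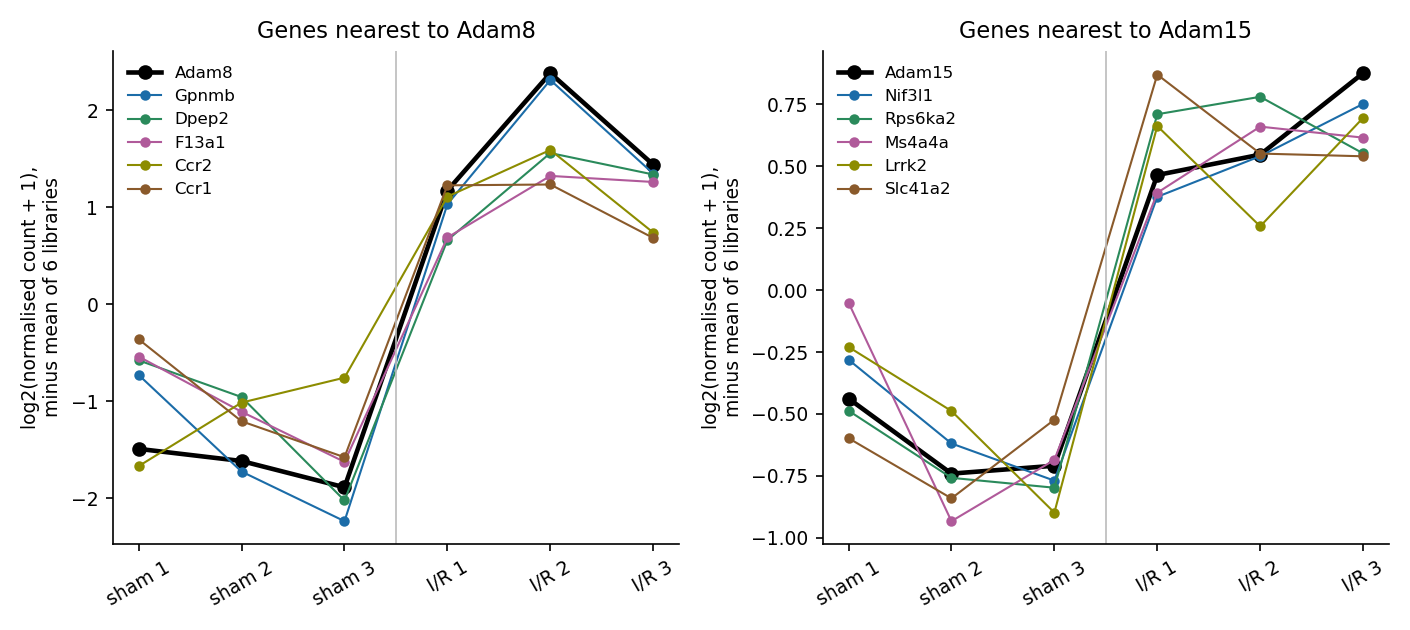
Log2(normalised count + 1) of Adam8 (left, black) and Adam15 (right, black) and their 5 nearest genes in each library, after subtracting each gene's mean over the 6 libraries. Gpnmb follows Adam8 with its peak in I/R library 2, and Nif3l1 follows Adam15 with its peak in I/R library 3.

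Around the 8 genes, 8 lists were examined with 116 tested genes in all: other ADAM genes, the ADAMTS relatives, partners of ADAM maturation, inhibitors, substrates, ErbB receptors, integrins and proteins that bind ADAM cytoplasmic tails. limma called 0 of the 116 after Benjamini-Hochberg adjustment over all tested genes, with 7 higher and 2 lower at an unadjusted p under 0.05. edgeR and DESeq2 on the recovered counts called 0 as well. I/R libraries lay above sham without overlap for 8 of the 116 and below for 8, where 5.11% and 4.48% of all tested genes did so. Unadjusted p was under 0.05 for 2.96% of all genes on the higher side and 1.48% on the lower side.

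Most other ADAM genes were barely present. Of the 26, 5 reached the minimum mean of 10 and 4 were at 0 in all libraries. The 5 had log2 fold changes of -0.41 to 0.98. Adamdec1, a secreted relative of macrophages and dendritic cells, had 857, 1087 and 1141 in sham and 697, 806 and 799 in I/R libraries. Its groups did not overlap, with I/R below sham, and limma put the log2 fold change at -0.41 (SE 0.19) with an adjusted p of 0.985. Adam33, Adam30 and Adam1a had 0.53, 0.62 and 0.98, all with an adjusted p of 0.985, and that of Adam33 was -0.29 without sham library 1.

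The ADAMTS genes encode secreted proteases of the matrix and related proteins. Of 24, 16 were tested, 12 with a positive and 4 with a negative log2 fold change and a median of 0.42. Adamts15 had 27.7, 54.5 and 4.78 in sham and 123, 59.7 and 40.5 in I/R libraries, and its groups overlapped. Its log2 fold change was 1.69 (SE 0.83) with a limma adjusted p of 0.985, and leaving out sham library 3 gave 0.77. Adamts1, Adamts10 and Adamts5 had 0.46, 0.36 and 0.67.

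Partners of ADAM maturation comprised the iRhoms, which bring ADAM17 to the surface, the tetraspanins that do so for ADAM10, and the convertases that remove the prodomain. Of 15 genes 14 were tested, 5 positive and 9 negative, with a median of -0.08. Tspan5, a tetraspanin gene of the ADAM10 group, had 73.3, 82.5 and 33.5 in sham and 135, 110.2 and 132 in I/R libraries, with no overlap, a log2 fold change of 1.08 (SE 0.42) and a limma adjusted p of 0.985. Furin, a convertase gene, had 2946, 2655 and 2096 in sham and 3086, 3872 and 3515 in I/R libraries, again without overlap and with an adjusted p of 0.985 (log2 fold change 0.45, SE 0.18).

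Pcsk6, another convertase gene, had a log2 fold change of 0.79 (SE 0.41), or 0.24 without sham library 3, and the scaffold gene Dlg1, whose groups did not overlap, had 0.35 (SE 0.19). The iRhom genes Rhbdf1 and Rhbdf2 had -0.03 and -0.33, and their groups overlapped.

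Tissue inhibitors of metalloproteases (TIMPs) block many ADAM proteins, TIMP3 above all ADAM17. All 4 tested inhibitor genes of 5 were positive, with a median of 0.57. Timp2 had 2617, 2435 and 1421 in sham and 3045, 2724 and 3584 in I/R libraries, with no overlap, a log2 fold change of 0.57 (SE 0.24) and a limma adjusted p of 0.985. Timp3 had 3422, 4153 and 1708 against 5085, 3177 and 4843, which overlapped, at 0.56 (SE 0.31), or 0.18 without sham library 3.

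Timp1 was listed at 16.3, 0 and 0 in sham and 7.61, 16.4 and 28.0 in I/R libraries, from 0 to 36 counts, too few for a firm fold. Reck, which encodes a membrane-anchored inhibitor, had 0.25 (SE 0.61), and -0.26 without sham library 3. Timp4 did not reach the minimum mean.

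Of 49 genes for membrane proteins known or proposed to be shed, 47 were tested, 26 positive and 21 negative, with a median of 0.09. Trem2, a macrophage receptor gene, had 264, 149.7 and 147 in sham and 370, 517 and 367 in I/R libraries, without overlap, and differed by 1.19 on the log2 scale (SE 0.29) with a limma adjusted p of 0.597. Il6ra, the gene of the interleukin 6 receptor that ADAM10 and ADAM17 release, had 873, 1056 and 1036 in sham and 603, 807 and 547 in I/R libraries, also without overlap, at -0.61 (SE 0.20, adjusted p = 0.985).

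Tek, the angiopoietin receptor gene, had 0.61 (SE 0.22), and Pdpn, a lymphatic membrane protein gene, 1.43 (SE 0.56), or 0.62 without sham library 3. Neither gene's groups overlapped, and both had an adjusted p of 0.985. Of these 49 genes 4, Pdpn among them, are also in a cell type marker list used here.

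ErbB receptors receive the growth factors that ADAM proteases release. All 4 genes were tested, 1 positive and 3 negative, with a median of -0.14. Egfr had a log2 fold change of -0.06, with 539, 341 and 261 in sham and 351, 335 and 357 in I/R libraries. The values of Erbb2, Erbb3 and Erbb4 overlapped as well (-0.30, 0.07 and -0.21), and all 4 signs turned when single libraries were left out.

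The 9 integrin genes had 5 positive and 4 negative members with a median of 0.14 and a range of -0.38 to 0.48. Itgav, Itga6, Itgb7 and Itga9 had 0.48, 0.47, -0.38 and -0.21, and none of the 9 was free of overlap. Of 18 genes for binders of the cytoplasmic tails 17 were tested, 9 positive and 8 negative, with a median of 0.13. Src, a tyrosine kinase gene, had -0.40, Sh3pxd2b, an adaptor gene of podosomes, 0.53, and Mad2l1, a spindle checkpoint gene, 0.70. The limma adjusted p of these 7 genes was 0.985.

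**Figure D5:**
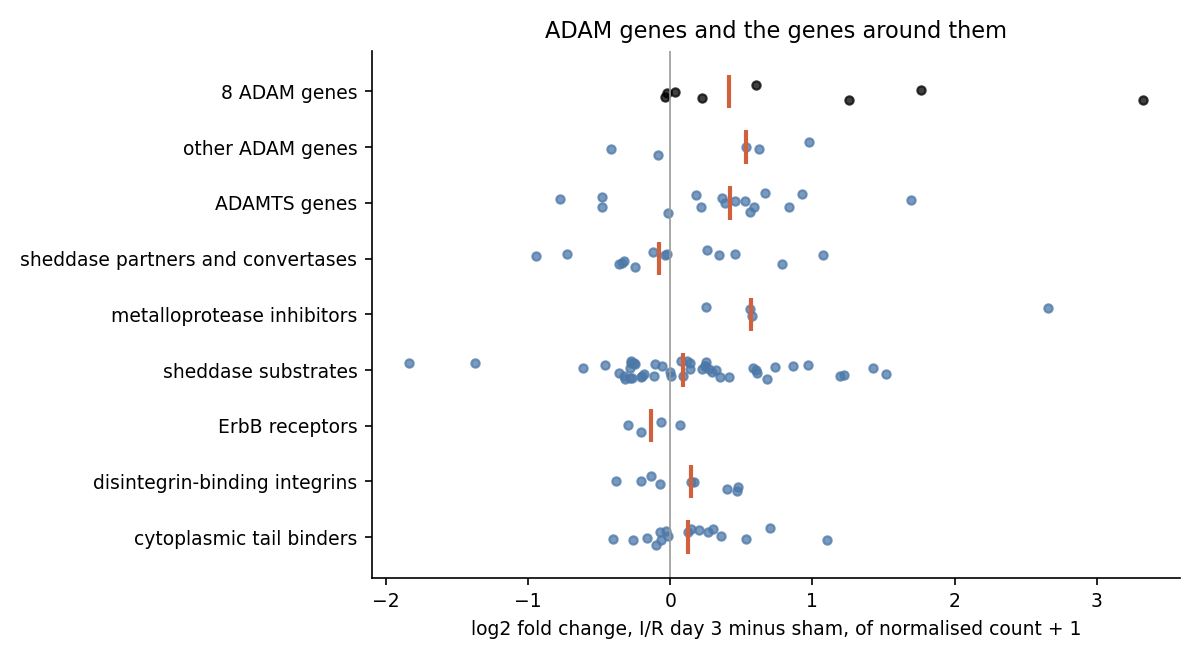
Log2 fold change, I/R day 3 minus sham, of the tested genes in each list, 1 point per gene with the list median as an orange bar. The 8 ADAM genes, chosen with this contrast known, run from -0.04 to 3.33, and the medians of the other lists lie between -0.14 and 0.57.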

How the data were processed

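RNA was extracted from sorted cells and sequenced after depletion of ribosomal RNA, per the labels' protocols. The authors deposited 1 table of normalised counts, a signal scaled per library. DESeq2 1.22.1, StringTie 1.3.3b, HISAT2 2.1.0, Trim Galore 0.5.0 and the build mm10 appear in the submitters' processing notes without their roles, and how genes were counted is not given in the sources used here. In every library 100% of values were whole multiples of the lowest nonzero value, within 0.01. These recovered counts, which may stem from coverage, served only as depth and for edgeR 4.0.16 and DESeq2 1.42.0 as alternatives.

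I/R was compared with sham in limma 3.58.1 (R 4.3.3) on log2(value + 1), without covariates and with an intensity trend, for 13434 genes with a mean of at least 10. Tests were two-sided, and Benjamini-Hochberg adjusted p-values were read at 0.05. The procedure was also run on simulated counts with the same spread setting for every gene. That run does not show how the procedure fares where the spread differs between genes, as here. Replicate libraries differed by more than sampling noise (chi-square per degree of freedom 28.6 to 47.4). With 3 against 3 libraries an exact permutation test cannot go below 0.1, so none was used. Gene models are GENCODE M21, in which 21886 gene identifiers were found without their version. The genes and lists were chosen with earlier results of these data known. Named are the 8 ADAM genes, the 5 nearest to Adam8 and to Adam15, the 4 genes of smallest unadjusted p in each list and all tested TIMP and iRhom genes. One gene that this rule names is not reported here. Alternatives covered scaling, pseudocount (0.5 and 5), filter (none and 50), trend, tool, each library left out and the replicate number as a block.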

Additional observations from a re-analysis of the deposited data

How the results depend on the processing

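Of 13434 genes, limma called 4 higher and 0 lower. It called 1 higher with a minimum mean of 50 and 0 without the intensity trend. edgeR called 1 higher and DESeq2 35 higher and 7 lower. With single libraries left out limma called 0 to 20 higher and 0 to 2 lower, the most without sham library 1. Among the 8 ADAM genes, limma called 1 higher, 0 without the trend and 0 to 1 with single libraries left out, and DESeq2 called 2. The cause was not tested. Adam8, Adam10, Adam12 and Adam15 stayed positive under all 16 alternatives. Signs turned under 3 alternatives each for Adam9, Adam17 and Adam19 and under 2 for Adam23. Adam12 ranged from 0.70 to 2.64.

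Samples that share a replicate number did not deviate together, with correlations of -0.02, -0.21 and -0.001 across genes. No sample correlated best with the sample of its own number. With the replicate number as a block limma called 0 genes higher and 0 of the 8 ADAM genes. Adam12 in sham library 3 rests on 6 counts, and most other ADAM genes lie below what this depth can compare.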

Other observations

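Adam11, named after its values were seen, encodes an ADAM protein without protease activity that is known from neurons. It did not reach the minimum mean and was not tested. Its counts were 0, 3 and 0 in sham libraries 1, 2 and 3 and 11, 25 and 10 in I/R libraries 1, 2 and 3. These few counts, not scaled for depth, did not overlap between the groups. Of the 13434 tested genes, a set without Adam11, 5.11% had every I/R library above every sham library. Adam11 was picked from the 26 other ADAM genes, so nothing is read from this.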
